A study of Mus musculus with 8 samples.

Results

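The endoplasmic reticulum (ER) module examined here holds 37 genes for chaperones, protein translocation, ER-associated degradation and the unfolded protein response (UPR). Its members were chosen by gene symbol from a list of known function, with earlier results of these data known. All 37 were found among the 24421 symbols of the count table. RNA was measured by sequencing of poly(A) RNA from perfused livers of C57BL/6N mice aged 8 to 10 weeks, in 4 CAPZ_KO libraries and 4 WT libraries. All animals carried Capzb alleles flanked by loxP sites (Capzb-fl/fl). CAPZ_KO animals also carried Albumin-CreERT2, in which the albumin promoter drives a tamoxifen-activated Cre recombinase in hepatocytes, and received 5 daily injections of tamoxifen starting at an age of 4 to 6 weeks. Capzb encodes the beta subunit of the capping protein that closes the growing end of actin filaments. WT animals were either Capzb-fl/fl mice given tamoxifen or Albumin-CreERT2;Capzb-fl/fl mice not injected, a distinction that the labels do not make among the WT libraries. Effects of tamoxifen or Cre and of the deletion therefore cannot be told apart. No label states that each library is a separate animal, so p-values reflect the scatter of these libraries, which may be technical.

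Secreted and membrane proteins enter the ER through the SEC61 channel, lose their signal peptide, and are folded by chaperones, lectins and disulfide isomerases. Proteins that fail to fold are drawn back to the cytosol by the SEL1L-HRD1 complex and degraded. Sensors in the ER membrane, IRE1 (Ern1), PERK (Eif2ak3) and ATF6, answer a load of unfolded protein by raising transcription of chaperone and degradation genes, partly through the factor XBP1, and by slowing translation. Hepatocytes secrete most plasma proteins, and the liver depends heavily on this machinery.

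Library totals were 13122355 to 16984971 counts in CAPZ_KO and 12060350 to 18916315 in WT. Values are given as CPM, counts scaled to library size after TMM, a scaling that centres the typical gene between libraries. Capzb stood at 72.5 ± 6.80 CPM in CAPZ_KO and 120.2 ± 13.4 CPM in WT (SD, n = 4 each), 60.3% of the WT level, with a log2 fold change of −0.73 ± 0.125 (SE) and an edgeR adjusted p of 0.00134. With counts scaled to library totals alone it was not called (−0.10, adjusted p = 0.442). The hepatocyte markers summed to 63059 to 89490 CPM in CAPZ_KO and 190869 to 245232 CPM in WT, with 7 of 9 tested lower and Ass1 too scarce in all libraries to be tested. Summed markers were 352.4 to 1061 against 33.2 to 65.2 CPM for cholangiocytes (5 of 7 higher), 829 to 1293 against 318 to 385 CPM for stellate cells and fibroblasts (8 of 8 higher), 1196 to 2083 against 587 to 1322 CPM for macrophages and monocytes (6 of 10 higher), and 419 to 554 against 271 to 349 CPM for plasma and B cells (2 of 9 higher, Sdc1 and Prdm1), CAPZ_KO first in each pair. The sums of endothelial markers (344 to 542 against 288 to 455 CPM, 2 of 8 higher) and of T and NK cell markers (8.47 to 16.3 against 3.48 to 19.3 CPM, 0 of 6 called) overlapped between the groups. So did the macrophage and monocyte sums, where CAPZ_KO 1 lay below WT 4. Spp1 made up most of the cholangiocyte sum, averaging 604 ± 321 CPM in CAPZ_KO and 30.2 ± 5.25 CPM in WT. The cholangiocyte markers Krt7 (−0.0054, adjusted p = 0.994) and Krt19 (−0.23, adjusted p = 0.713) were not called. No marker was at 0 in every library. In bulk liver, fewer cells of a type and less RNA per cell cannot be told apart, and the part of this shift in the results below was not tested. Libraries CAPZ_KO 4 and WT 4 stood apart in holding 207.9 and 351.3 CPM of Xist, the RNA of the inactive X chromosome. They also held 0 counts of Y-linked genes. Results are therefore also given without WT 4 or without both where that changes them. When WT 4 alone is left out, CAPZ_KO 4 remains, so that Xist status then differs between the groups.

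Relative to the typical gene, the ER module lay low in CAPZ_KO: genes of ER-associated degradation, 2 J-domain co-chaperones, GRP94 and single subunits of the entry machinery were lower, while the PERK gene Eif2ak3 was the one gene that was higher. Of the 37 genes, 12 were lower (32.4%) and 1 was higher (2.7%) at an edgeR adjusted p under 0.05, and 24 were not called. Of all 12985 tested genes, 19.0% were lower, 22.4% were higher and 41.4% were called in either direction. Thus the share of the module that was lower stood above that of all genes, the share that was higher stood below it, and the share called either way (35.1%) was not above that of all genes. Without WT 4 the share called either way was 62.2% of the module and 40.6% of all genes, and without both Xist libraries 43.2% and 37.1%. The log2 fold change was below 0 in 35 of the 37 genes, with a median of −0.42, against −0.003 for all tested genes. The median was −0.63 without WT 4, with 35 genes below 0, and −0.28 without WT 1, with 32 below 0. All CAPZ_KO libraries lay below all WT libraries in 9 of the genes, all lay above in 1, and the groups overlapped in 27. Among all tested genes 18.2% had every CAPZ_KO library below every WT library, 22.1% had it above, and 40.3% had groups that did not overlap.

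**Figure D1:**
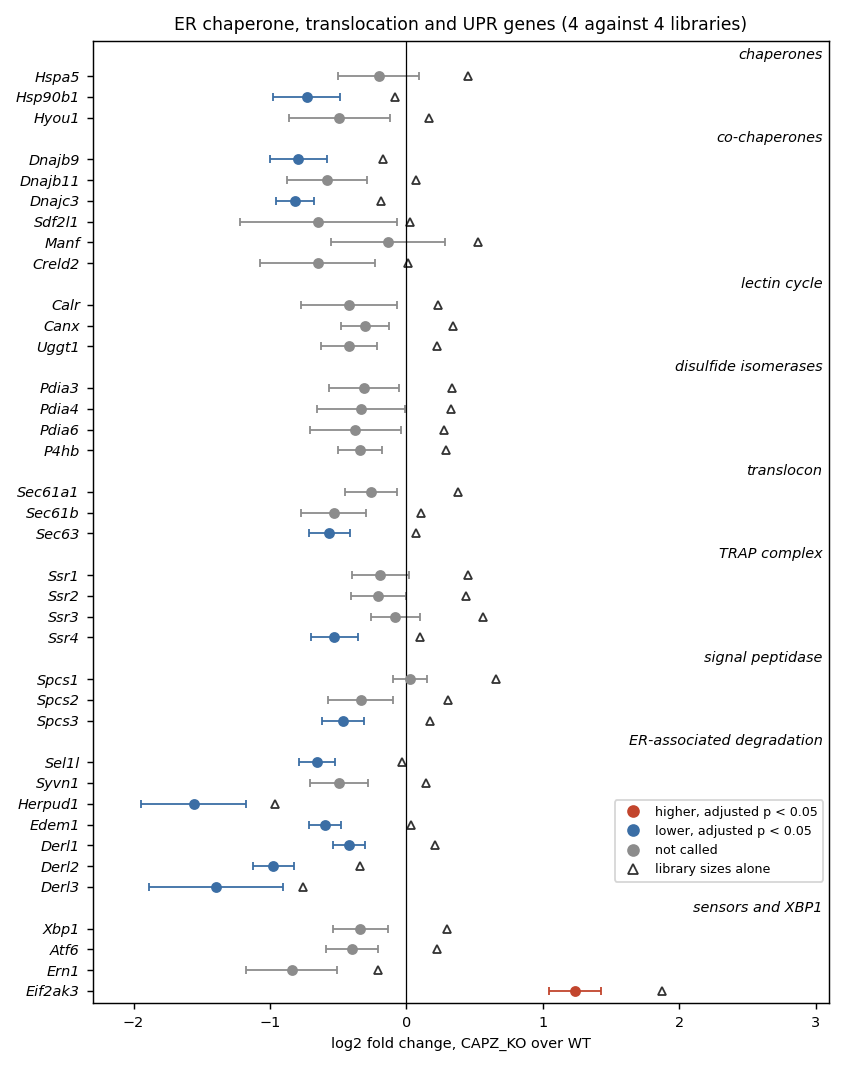
Log2 fold change of each of the 37 genes, CAPZ_KO over WT, with its SE (circles and bars, TMM scaling), grouped by role; triangles give the same value with counts scaled to library totals alone. The circles of 35 genes lie below 0, Herpud1 and Derl3 farthest, and Eif2ak3 lies above 0 on both scales, while 29 of the triangles lie above 0.

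The sign of these fold changes is relative to the typical gene. The TMM factors were 1.18 to 1.33 in CAPZ_KO and 0.774 to 0.847 in WT, and albumin RNA alone took 3.49% to 5.09% of counts in CAPZ_KO and 9.80% to 14.1% in WT. With counts scaled to library totals alone, the median of all genes stood at a log2 fold change of 0.62 and that of the module at 0.21, with 29 genes above 0 and 8 below. Then Ssr3, Spcs1 and Eif2ak3 were called higher and Herpud1 alone lower (−0.96, adjusted p = 0.0383), which is 2.7% of the module, against 5.39% of all genes lower on that scale. Relative to the median of all genes, 35 of the 37 genes were below it on both scales. Rescaling libraries shifts all genes by nearly the same amount, so that this count could hardly differ between the scales. Seen as a share of all counts, the module took 1.04% ± 0.156 in CAPZ_KO and 0.905% ± 0.195 in WT (SD, n = 4 each), whereas its summed level after TMM was 8360 ± 895 CPM in CAPZ_KO and 11317 ± 2806 CPM in WT. All fold changes below are on the TMM scale, and of the module's lower genes only Herpud1 was also called lower with library totals alone.

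Many targets of ATF6 and XBP1 share the ER stress response element (ERSE), which pairs a CCAAT box with a CCACG half-site. The 250 bases before the RefSeq transcription start (build GRCm38.p6) were searched on both strands for ERSE (CCAAT, 9 bases of any kind, then CCACG), for the shorter ERSE-II (ATTGG, 1 base of any kind, then CCACG) and for the core TGACGTGG of the UPR element. Promoters were found for 30 of the 37 genes. ERSE stood in 9 of the 30 genes (30%), against 35 of 27025 genes in all (0.13%). ERSE-II stood in 1 of the 30 (3.33%, Herpud1), against 10 genes in all (0.037%), and the UPR core in 0 of the 30, against 163 genes in all (0.603%). No match in the module overlapped another. The stretches around the matches are shown for the 10 genes that hold one. Members were chosen by known function, which includes the UPR, so these shares are not independent of that choice. Each is read 5′ to 3′ on the strand of its gene, with the motif in capitals.
Herpud1, chr8:94386357-94386407, plus strand: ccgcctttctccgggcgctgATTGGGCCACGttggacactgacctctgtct
Hsp90b1, chr10:86705513-86705676, minus strand: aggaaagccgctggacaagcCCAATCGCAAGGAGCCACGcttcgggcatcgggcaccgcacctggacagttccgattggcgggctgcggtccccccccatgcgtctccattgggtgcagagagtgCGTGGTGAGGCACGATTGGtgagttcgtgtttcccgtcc
Dnajc3, chr14:118937807-118937865, plus strand: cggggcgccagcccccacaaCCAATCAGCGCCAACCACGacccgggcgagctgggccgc
Derl3, chr10:75893222-75893280, plus strand: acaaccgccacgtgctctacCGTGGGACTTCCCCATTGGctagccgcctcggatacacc
Hspa5, chr2:34772020-34772048, plus strand: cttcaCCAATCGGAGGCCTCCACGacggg
Calr, chr8:84847055-84847113, minus strand: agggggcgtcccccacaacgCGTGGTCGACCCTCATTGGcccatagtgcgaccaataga
Canx, chr11:50325780-50325838, minus strand: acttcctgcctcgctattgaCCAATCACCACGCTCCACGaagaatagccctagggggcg
Pdia6, chr12:17266471-17266529, plus strand: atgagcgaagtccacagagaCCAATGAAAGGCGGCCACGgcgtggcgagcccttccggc
Syvn1, chr19:6046512-6046570, plus strand: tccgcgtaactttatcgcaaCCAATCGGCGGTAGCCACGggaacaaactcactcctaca
Creld2, chr15:88819500-88819558, plus strand: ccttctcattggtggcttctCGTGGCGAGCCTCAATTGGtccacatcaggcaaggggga
Hsp90b1 carried 2 elements in opposite orientations, and in Calr, Creld2 and Derl3 the element lay on the other strand, so that its capitals begin with CGTGG. The motif ended 26 bases before the start in Syvn1 at the nearest and 194 bases before it in Hsp90b1 at the farthest. Of the 10 genes with an element, 4 were lower and 0 higher, with a median log2 fold change of −0.57 (−1.56 to −0.20). Of the 20 genes with a promoter and no element, 6 were lower and 1 higher, with a median of −0.47, and of the 7 with no promoter 2 were lower, with a median of −0.40. The medians with and without an element lay close together. A match is a description of the letters and not a bound site.

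The 3 chaperones of the ER lumen behaved unevenly. Hsp90b1 (GRP94, the HSP90 of the ER) held 886, 599, 762 and 514 CPM in CAPZ_KO libraries 1 to 4, against 1583, 1006, 1211 and 783 CPM in WT libraries 1 to 4. CAPZ_KO 1 was above WT 4, so that the groups overlapped. The mean was 690.1 ± 166 CPM in CAPZ_KO and 1146 ± 339.7 CPM in WT (SD, n = 4 each), and the gene was lower by a log2 fold change of −0.73 ± 0.245 (SE, adjusted p = 0.036). Its call was lost without CAPZ_KO 2, 3 or 4 or without WT 1 or 3, at adjusted p of 0.0529 to 0.0836, and with upper-quartile scaling (0.0583). Hspa5 (BiP, the HSP70 of the ER and the protein that holds the sensors inactive) averaged 805 ± 187 CPM in CAPZ_KO and 927 ± 350.5 CPM in WT, a log2 fold change of −0.20 ± 0.300 that was not called (adjusted p = 0.613). BiP RNA is a common readout of ER stress, and its WT libraries alone spanned 440.1 to 1267 CPM, a range that took in all CAPZ_KO values of 609.7 to 980.4 CPM. Hyou1 (GRP170, which exchanges nucleotide on BiP) gave −0.49 ± 0.372 (adjusted p = 0.316) and was called lower without WT 4 (−0.77, adjusted p = 0.0283). It was not called without both Xist libraries (−0.64, adjusted p = 0.055), and ranged from −0.77 to −0.24 when 1 library was left out.

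Among the 6 co-chaperones and BiP cofactors, Dnajc3 and Dnajb9 were lower in CAPZ_KO, with no overlap between the groups. Dnajc3 (p58IPK, a J-domain protein of the ER lumen, chr14:118937976-118981697, plus strand, GRCm38) held 178, 162, 169.9 and 163 CPM in CAPZ_KO, against 313, 279, 346 and 247 CPM in WT. The CAPZ_KO libraries lay within a narrow band far below the lowest WT library. The means were 168 ± 7.59 CPM and 296 ± 42.7 CPM (SD, n = 4 each), and the log2 fold change was −0.82 ± 0.137 (SE, adjusted p = 0.00115). Dnajb9 (ERdj4, a J-domain protein that binds IRE1 and represses it) held 43.4, 46.3, 52.6 and 50.0 CPM in CAPZ_KO, against 58.8, 119.6, 67.0 and 87.1 CPM in WT, with a log2 fold change of −0.79 ± 0.206 (adjusted p = 0.0117). Its WT libraries ran in another order than those of most members, with WT 2 the highest and WT 1 the lowest.

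The other 4 were not called. Dnajb11 (ERdj3) gave a log2 fold change of −0.58 ± 0.295 (adjusted p = 0.141), Sdf2l1 (a partner of ERdj3) −0.65 ± 0.576 (0.399), Manf (a secreted ER cofactor of BiP) −0.14 ± 0.416 (0.812) and Creld2 (an ER protein induced by stress) −0.65 ± 0.422 (0.246). Their WT libraries spread widely: Sdf2l1 held 32.7, 23.2, 31.4 and 14.8 CPM in CAPZ_KO, against 81.7, 33.2, 37.6 and 7.97 CPM in WT. Without WT 4, Dnajb11 (−0.82, adjusted p = 0.00768) and Creld2 (−0.93, adjusted p = 0.0494) were called lower. Dnajb11 was also lower without both Xist libraries (−0.75, adjusted p = 0.0193), while Creld2 was not called there (−0.77, adjusted p = 0.0956). With 1 library left out, Dnajb11 ranged from −0.82 to −0.33 and Creld2 from −0.93 to −0.28.

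None of the 3 genes of the lectin cycle, which holds glycoproteins in the ER until they are folded, was called. Calr (calreticulin, the soluble lectin) held 946, 902, 954 and 684 CPM in CAPZ_KO, against 1816, 1084, 1332 and 438 CPM in WT. WT 1, 2 and 3 were above every CAPZ_KO library and WT 4 was below all of them. Its log2 fold change was −0.42 ± 0.350 (adjusted p = 0.36), and −0.70 without WT 4 (adjusted p = 0.0236). Calr was not called without both Xist libraries (−0.60, adjusted p = 0.0526), and ranged from −0.70 to −0.14 when 1 library was left out. Canx (calnexin, the membrane-bound lectin) gave −0.30 ± 0.175 (adjusted p = 0.192). Uggt1, the glucosyltransferase that returns misfolded glycoproteins to the cycle, gave −0.42 ± 0.204 (adjusted p = 0.125). It was called lower without WT 4 (−0.60, adjusted p = 0.0102) and without both Xist libraries (−0.53, adjusted p = 0.0268). Uggt1 ranged from −0.60 to −0.29 when 1 library was left out.

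The 4 disulfide isomerases were not called either, with log2 fold changes in a narrow range of −0.37 to −0.31. P4hb (PDI, the main isomerase and a subunit of prolyl 4-hydroxylase) held 1502, 1698, 1959 and 1647 CPM in CAPZ_KO, against 2515, 2071, 2237 and 1806 CPM in WT. WT 4 lay within the CAPZ_KO values and the other WT libraries above them. The log2 fold change was −0.34 ± 0.160 (adjusted p = 0.111), and DESeq2 called it lower (−0.37, adjusted p = 0.0442). Pdia3 (ERp57, the partner of the lectins) gave −0.31 ± 0.258, Pdia4 (ERp72) −0.33 ± 0.321 and Pdia6 (P5, which acts on IRE1 and PERK) −0.37 ± 0.331, at adjusted p of 0.361, 0.437 and 0.391. Without WT 4, Pdia3 (−0.53, adjusted p = 0.0432) and Pdia6 (−0.64, adjusted p = 0.0333) were called lower. Neither was called without both Xist libraries (adjusted p = 0.0944 and 0.0635). When 1 library was left out, Pdia3 ranged from −0.53 to −0.15 and Pdia6 from −0.64 to −0.16.

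Of the 10 genes that bring proteins into the ER, Sec63, Ssr4 and Spcs3 were lower in CAPZ_KO. Sec63, whose J domain recruits BiP to the channel, held 137, 112, 115 and 106 CPM in CAPZ_KO, against 193, 161, 203 and 139 CPM in WT. The highest CAPZ_KO library lay just below the lowest WT library. The log2 fold change was −0.57 ± 0.151 (SE, adjusted p = 0.0134). Sec61a1, the pore of the channel, was not called (−0.26 ± 0.190, adjusted p = 0.299). Sec61b, its small beta subunit, held 47.6, 48.2, 45.0 and 36.2 CPM in CAPZ_KO, against 101, 49.4, 61.8 and 44.7 CPM in WT. The groups overlapped through WT 4, and the log2 fold change of −0.53 ± 0.240 (adjusted p = 0.100) was called only without that library (−0.68, adjusted p = 0.0386). Sec61b was not called without both Xist libraries (−0.59, adjusted p = 0.0846), and ranged from −0.68 to −0.24 when 1 library was left out.

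In the TRAP complex, which helps nascent chains pass the channel, Ssr4 held 79.0, 107, 93.1 and 92.4 CPM in CAPZ_KO, against 171, 134, 133 and 98.5 CPM in WT. CAPZ_KO 2 was above WT 4 and the other values kept apart. Ssr4 had a log2 fold change of −0.53 ± 0.172 (adjusted p = 0.0321), a call that was lost without CAPZ_KO 1, 3 or 4 or without WT 1, 2 or 3, at adjusted p of 0.0574 to 0.0757, and with upper-quartile scaling (0.0641). Ssr3, the TRAP subunit with the highest level per length, held 358, 250.3, 345 and 272 CPM in CAPZ_KO, against 396, 299.6, 347 and 256 CPM in WT. These values overlapped, and the log2 fold change was −0.08 ± 0.180 (adjusted p = 0.735). Ssr1 (−0.19 ± 0.207) and Ssr2 (−0.21 ± 0.199) were not called, at adjusted p of 0.488 and 0.436.

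Among the signal peptidase subunits, Spcs3, which the enzyme needs for cleavage, averaged 83.2 ± 10.6 CPM in CAPZ_KO and 115 ± 21.0 CPM in WT, with a log2 fold change of −0.46 ± 0.155 (adjusted p = 0.036). The call was lost without CAPZ_KO 2 or 4 or without WT 1 or 3, at adjusted p of 0.0643 to 0.0889, and with upper-quartile scaling (0.0752). Spcs1, an accessory subunit, held 81.8, 102, 107 and 85.0 CPM in CAPZ_KO, against 100.1, 88.8, 91.2 and 88.2 CPM in WT. Its values were mixed between the groups (0.03 ± 0.125, adjusted p = 0.869). Spcs2, also accessory, gave −0.34 ± 0.236 (adjusted p = 0.28).

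ER-associated degradation was the role with the most calls: 6 of its 7 genes were lower in CAPZ_KO, and in 5 of them every CAPZ_KO library lay below every WT library. By size of change it did not stand alone. Its median log2 fold change was −0.66, close to −0.65 for the co-chaperones and BiP cofactors. Without WT 4 the medians were −0.74 for degradation, −0.86 for the co-chaperones and cofactors and −0.77 for the chaperones, and smaller in size in the other roles. The largest change was in Herpud1 (HERP, a membrane protein that scaffolds the HRD1 complex, chr8:94386438-94395377, plus strand, GRCm38), which also carries the module's single ERSE-II. It held 74.7, 185, 175 and 340.2 CPM in CAPZ_KO, against 474, 488, 722 and 600.5 CPM in WT. CAPZ_KO 1 was by far the lowest and CAPZ_KO 4 the highest of its group, and yet all 4 were below the lowest WT library. Herpud1 averaged 194 ± 109.6 CPM in CAPZ_KO and 571 ± 116 CPM in WT (SD, n = 4 each), 33.9% of the WT level, with a log2 fold change of −1.56 ± 0.383 (SE, adjusted p = 0.00967).

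The derlins are membrane proteins of the same retrotranslocation machinery. Derl2 (chr11:71007164-71019841, minus strand, GRCm38) held 68.2, 64.9, 70.0 and 57.8 CPM in CAPZ_KO, against 154, 118, 140.2 and 101 CPM in WT. The groups were well apart, at 50.8% of the WT level, and the log2 fold change was −0.98 ± 0.149 (adjusted p = 0.00067). Exons of Derl2 overlap those of Mis12 on the opposite strand. Derl1 averaged 114 ± 7.14 CPM in CAPZ_KO and 153 ± 14.2 CPM in WT, a log2 fold change of −0.42 ± 0.118 (adjusted p = 0.016). Derl3 was scarce, with 25, 22, 11 and 10 reads in CAPZ_KO, against 22, 52, 38 and 9 reads in WT, or 1.13, 1.10, 0.665 and 0.511 CPM against 2.36, 3.42, 2.70 and 0.583 CPM. WT 4 was within the CAPZ_KO range. Its log2 fold change of −1.39 ± 0.491 (adjusted p = 0.0437) was lost without any single library other than WT 4, at adjusted p of 0.0537 to 0.124, with upper-quartile scaling (0.0562) and by limma-voom (0.132). It was −1.73 without WT 4 (adjusted p = 0.00379).

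Sel1l, the adaptor that stabilises the HRD1 ligase, held 97.9, 97.0, 101 and 119 CPM in CAPZ_KO, against 165, 179.6, 172 and 137 CPM in WT. All CAPZ_KO libraries were below all WT libraries, and the log2 fold change was −0.66 ± 0.130 (SE, adjusted p = 0.00292). Edem1, a mannosidase-like protein that delivers glycoproteins for degradation, held 145, 144, 159.7 and 149.8 CPM in CAPZ_KO, against 248, 207, 233 and 217 CPM in WT. Both groups were tight and apart, with a log2 fold change of −0.60 ± 0.117 (adjusted p = 0.00265). Syvn1 (HRD1, the ubiquitin ligase itself) held 45.9 ± 2.30 CPM in CAPZ_KO and 64.8 ± 19.8 CPM in WT, with WT 4 lowest of all 8 at 36.5 CPM. It was not called (−0.50 ± 0.214, adjusted p = 0.0875), and was lower without WT 4 (−0.70, adjusted p = 0.0017) or without both Xist libraries (−0.67, adjusted p = 0.00559), which made all 7 degradation genes lower. Syvn1 ranged from −0.70 to −0.37 when 1 library was left out.

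**Figure D2:**
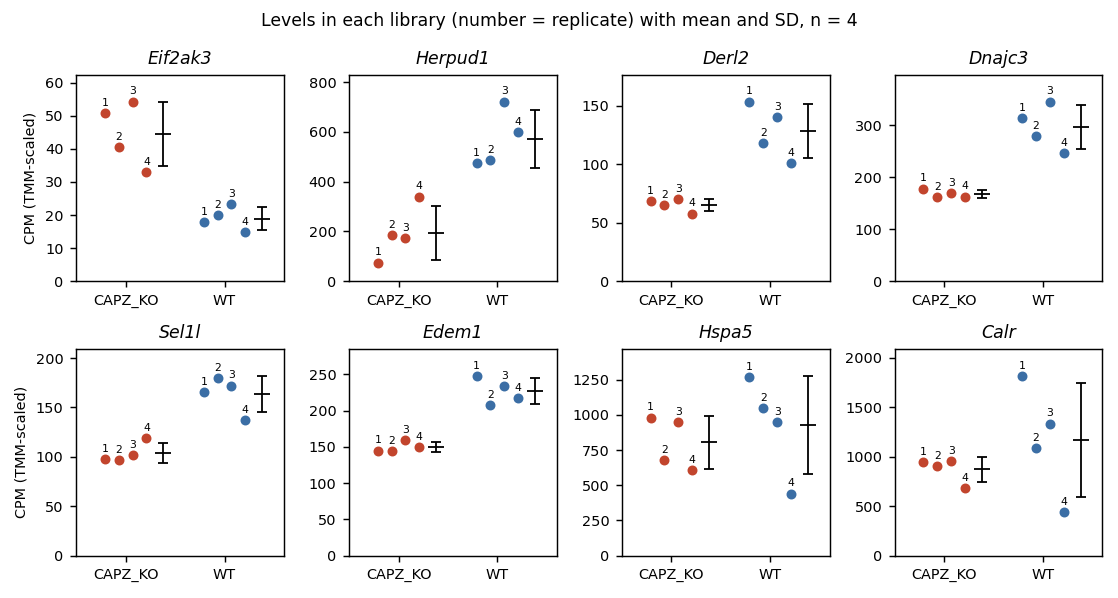
CPM after TMM scaling of 8 genes of the module in each CAPZ_KO and WT library (points, numbered by replicate) with the mean and SD of each group (n = 4). The groups are apart in Eif2ak3, Herpud1, Derl2, Dnajc3, Sel1l and Edem1 and overlap in Hspa5 and Calr, where WT 4 is the lowest of all 8 libraries.

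Of the sensors and XBP1, Eif2ak3 was called and the other 3 were not. Eif2ak3 (PERK, the kinase that phosphorylates eIF2alpha and slows translation, chr6:70844515-70905245, plus strand, GRCm38) held 50.7, 40.4, 54.2 and 33.0 CPM in CAPZ_KO, against 17.8, 19.9, 23.2 and 14.8 CPM in WT. Every CAPZ_KO library was above every WT library. The means were 44.6 ± 9.70 CPM in CAPZ_KO and 18.9 ± 3.52 CPM in WT (SD, n = 4 each), 235% of the WT level, with a log2 fold change of 1.23 ± 0.192 (SE, adjusted p = 0.000749). With library totals alone the value was 1.87 (adjusted p = 5.79e-05). Exons of Eif2ak3 overlap those of Gm43292 on the opposite strand. Eif2ak3 was the one gene of the module that was called higher under TMM, and its call held without each library in turn.

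Ern1 (IRE1, which splices Xbp1 RNA) held 19.8, 16.7, 17.7 and 14.5 CPM in CAPZ_KO, against 14.3, 48.8, 38.7 and 20.9 CPM in WT. WT 2 and 3 were far above the other 6 libraries, and WT 1 was below all CAPZ_KO libraries. Its log2 fold change was −0.84 ± 0.334 (adjusted p = 0.0693), and it was called lower by DESeq2 (−0.86, adjusted p = 0.0286), without WT 1 (−1.08, adjusted p = 0.0105) and without WT 4 (−0.997, adjusted p = 0.0453). Ern1 was not called without both Xist libraries (−0.92, adjusted p = 0.0986). Atf6, whose cleaved form drives chaperone genes, held 65.9, 70.1, 66.3 and 80.3 CPM in CAPZ_KO, against 65.4, 95.0, 128 and 83.7 CPM in WT. WT 1 was again the lowest of all 8, and the log2 fold change was −0.40 ± 0.189 (adjusted p = 0.116), and −0.54 without WT 1 (adjusted p = 0.023).

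Xbp1, the transcription factor made active by IRE1, held 253, 311, 270.3 and 193 CPM in CAPZ_KO, against 368, 387, 319.6 and 223 CPM in WT. The groups overlapped through WT 4, with a log2 fold change of −0.34 ± 0.204 (adjusted p = 0.211). Gene counts do not separate spliced from unspliced Xbp1 RNA, and protein phosphorylation or cleavage of the sensors is not measured by RNA sequencing.

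Variation within the groups had a shape of its own. Among the WT libraries, 26 of the 37 genes were highest in WT 1 and 32 were lowest in WT 4. Among the CAPZ_KO libraries, 19 were highest in CAPZ_KO 1, 12 in CAPZ_KO 3, and 27 were lowest in CAPZ_KO 4. The libraries that held Xist were thus the low ones in each group for most of the module. The module summed to 8907, 8017, 9248 and 7266 CPM in CAPZ_KO and 14403, 10953, 12222 and 7690 CPM in WT. The WT 4 sum fell inside the CAPZ_KO range and the other WT sums above it. WT 4 was below every CAPZ_KO library in 16 genes, while WT 1, 2 and 3 were all above every CAPZ_KO library in 25. The summed hepatocyte markers did not set WT 4 apart, at 212557 CPM against 190869 to 245232 CPM over the WT group, but most of that sum was Alb (156423 CPM in WT 4). Apoa1 held 5442 CPM in WT 4, against 11937 to 13937 CPM in WT 1, 2 and 3 and 6511 to 9414 CPM in CAPZ_KO. Ttr, Apob and Trf were also lowest in WT 4 among the WT libraries. Cyp2e1 was highest there, and the other hepatocyte markers lay between their WT values. WT 4 was the highest WT library for the summed markers of macrophages and monocytes (1322 CPM), cholangiocytes (65.2 CPM), stellate cells and fibroblasts (384.8 CPM) and T and NK cells (19.3 CPM). Whether these differences bear on the module was not tested.

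Without WT 4, 22 genes of the module (59.5%) were lower and 1 higher, against 18.1% of all genes lower, and the added genes were Hyou1, Dnajb11, Creld2, Calr, Uggt1, Pdia3, Pdia6, Sec61b, Syvn1 and Ern1. Without both Xist libraries 15 (40.5%) were lower and 1 higher, against 16.1% of all genes lower, the added genes being Dnajb11, Uggt1 and Syvn1. Leaving out each library in turn, 8 genes kept their lower call every time: Dnajb9, Dnajc3, Sec63, Sel1l, Herpud1, Edem1, Derl1 and Derl2. The share of all genes that kept a lower call in this way was not computed.

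**Figure D3:**
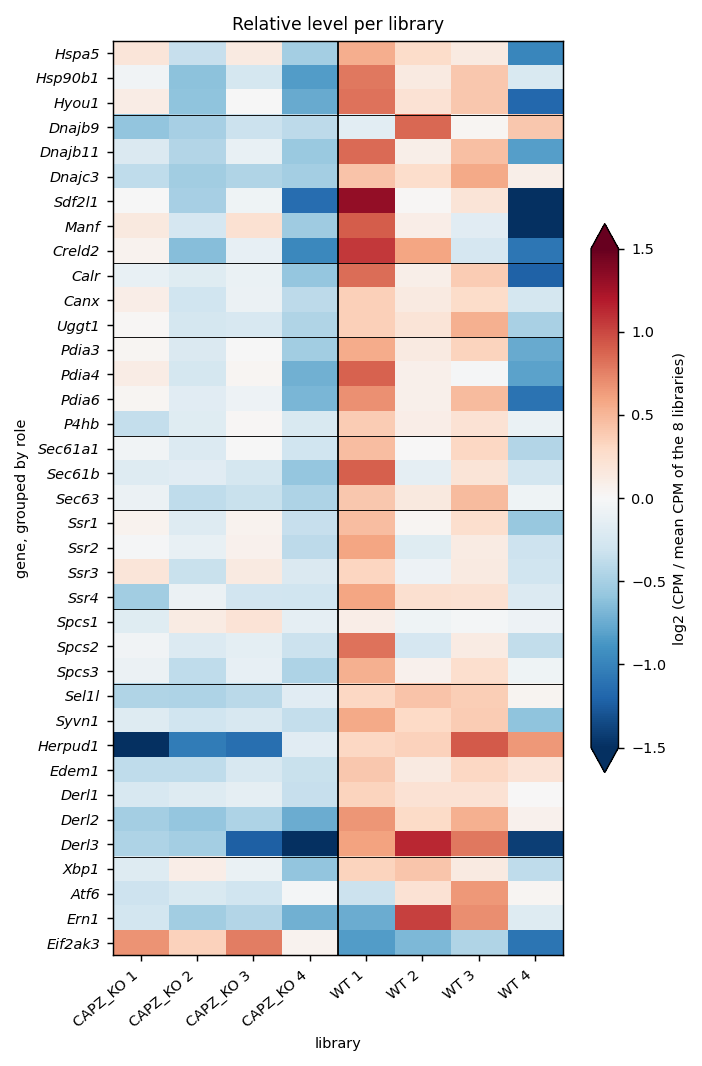
Log2 of the CPM of each gene in each library over its mean in all 8 libraries, with the roles divided by lines (red above the mean, blue below, colours capped at 1.5). WT 1 is the highest WT library in 26 genes and WT 4 the lowest in 32, and the degradation genes and Dnajc3 stay low across the CAPZ_KO columns.

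The coefficient of variation (CV, SD over mean) was larger in WT than in CAPZ_KO for 34 of the 37 genes, against 69.1% of all tested genes. Its median over the module was 13.4% in CAPZ_KO and 28.4% in WT, and over all tested genes 14.8% in CAPZ_KO and 21.0% in WT. The widest WT spread was found in the cofactor genes Sdf2l1 (76.4%), Manf (60.4%) and Creld2 (58.2%). Genes with a tight WT group were Spcs1 (5.94%), Edem1 (7.89%) and Derl1 (9.26%). Sdf2l1 and Creld2 had log2 fold changes of −0.65 without a call, while Sec63 had −0.57 with one. Herpud1 was the reverse case, with a CV of 56.6% in CAPZ_KO and 20.3% in WT.

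**Figure D4:**
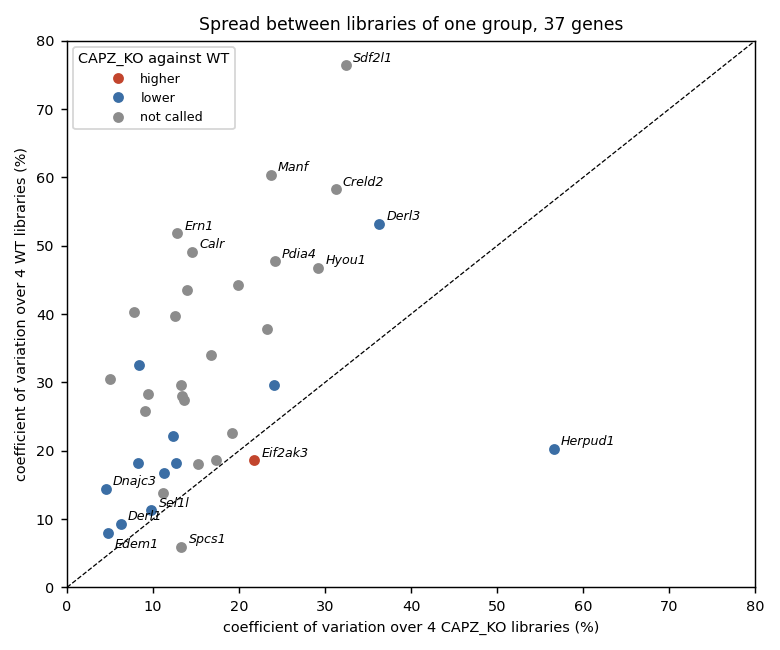
Coefficient of variation over the 4 CAPZ_KO libraries (x axis, percent) and over the 4 WT libraries (y axis, percent) for each of the 37 genes, coloured by call; the dashed line marks equal spread. All but Herpud1, Eif2ak3 and Spcs1 lie above the line, Sdf2l1 the highest at 76.4% in WT.

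Levels of different genes were compared as CPM per kilobase of exon, which counts every annotated exon and so understates genes with long rare exons. P4hb led in both groups, at 595 ± 66.7 in CAPZ_KO and 754 ± 104 in WT, followed by Calr at 303 ± 44.1 and 405 ± 199. Herpud1 ranked 7 of 37 in CAPZ_KO and 4 of 37 in WT, at 83.0 ± 47.0 and 245 ± 49.6. The sensors other than Xbp1 were near the bottom. Eif2ak3 stood at 7.40 ± 1.61 in CAPZ_KO and 3.14 ± 0.585 in WT, Atf6 at 7.65 ± 0.725 and 10.1 ± 2.86, and Ern1 at 2.10 ± 0.269 and 3.75 ± 1.94. Eif2ak3 and Atf6 thus had like levels in CAPZ_KO, within their SD, and unlike levels in WT.

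The module was set beside 105 further genes of the same pathways, of which 101 were tested, with 26 lower, 8 higher and a median log2 fold change of −0.16. Beside these counts and those of each list below stand the shares of all tested genes, 19.0% lower and 22.4% higher. In translocation and signal recognition 4 of 13 tested were lower and 0 higher. The lower ones named by p were Srpr, the receptor of the signal recognition particle (139 ± 7.25 CPM in CAPZ_KO and 228 ± 23.3 CPM in WT, −0.71 ± 0.123, adjusted p = 0.00142), and Sec62, the partner of Sec63 (−0.56 ± 0.118, adjusted p = 0.00412). In N-glycosylation 4 of 13 were lower and 1 higher. Ganab (−0.63 ± 0.149, adjusted p = 0.00712) and Mogs (−0.59 ± 0.171, adjusted p = 0.019), the glucosidases that trim new glycans, were lower. Tusc3, a subunit of the oligosaccharyltransferase, was higher (0.73 ± 0.187, adjusted p = 0.011). With library totals alone Sec62, Mogs and Ganab stood just above 0 (0.071, 0.044 and 0.0017), and of the other lower genes named here Srpr, Cnpy2, Erp44, Aup1, Os9 and Lman1 kept their sign and lost their call.

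In folding and oxidation 7 of 19 were lower and 1 higher. Erp44, which retrieves secretory proteins to the ER (−0.68 ± 0.135, adjusted p = 0.00301), and Cnpy2 (−0.73 ± 0.138, adjusted p = 0.00231) were lower. Dnajc10, a reductase with a J domain that works in degradation, was higher at 67.6 ± 6.86 CPM in CAPZ_KO and 40.6 ± 4.68 CPM in WT (0.74 ± 0.127, adjusted p = 0.0014). In degradation beyond the module 4 of 18 were lower and 0 higher, among them the lectin Os9 (−0.63 ± 0.135, adjusted p = 0.00416) and Aup1 (−0.65 ± 0.124, adjusted p = 0.00228), both partners of the HRD1 complex. That share, 4 of 18, was near the 19.0% of all genes, while 6 of 7 were lower among the module's own degradation genes. Both lists were chosen with earlier results of these data known.

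In UPR signalling 5 of 17 were higher and 3 lower, with a median of 0.18. These counts were near the shares of all genes, 22.4% higher and 19.0% lower. Ddit3 (CHOP, a stress factor downstream of PERK) held 14.8, 10.6, 10.8 and 8.74 CPM in CAPZ_KO, against 6.54, 5.99, 6.60 and 5.32 CPM in WT. All CAPZ_KO libraries were above all WT libraries (0.88 ± 0.189, adjusted p = 0.00441). Atf4, the factor translated on eIF2alpha phosphorylation, averaged 92.4 ± 10.3 CPM in CAPZ_KO and 104.7 ± 19.5 CPM in WT and was not called (−0.18 ± 0.155, adjusted p = 0.378); it was singled out after its values were seen. Creb3l1, a membrane-bound factor related to ATF6, was higher at 5.26 ± 1.61 CPM in CAPZ_KO and 1.56 ± 0.778 CPM in WT (1.78 ± 0.382, adjusted p = 0.00434). Trib3, Creb3l2 and Atf6b were the other higher genes. Ppp1r15b, the constitutive subunit of the eIF2alpha phosphatase that opposes PERK, was lower at 81.0 ± 5.70 CPM in CAPZ_KO and 164 ± 29.5 CPM in WT (−1.02 ± 0.147, adjusted p = 0.000494). Tmbim6 (BAX inhibitor 1) was lower at 1048 ± 87.3 CPM in CAPZ_KO and 2031 ± 85.9 CPM in WT (−0.95 ± 0.136, adjusted p = 0.00046), and Creb3l3 was the third lower gene.

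In export from the ER 4 of 21 were lower, near the 19.0% of all genes. Only 1 of the 21 was higher, below the 22.4% of all genes. Sar1b, the GTPase that starts COPII vesicles (−1.18 ± 0.155, adjusted p = 0.000299), and Lman1, a cargo receptor for coagulation factors (−0.93 ± 0.141, adjusted p = 0.000651), were lower. Kdelr3, a receptor that returns chaperones to the ER, was higher at 3.48 ± 2.43 CPM in CAPZ_KO and 0.330 ± 0.101 CPM in WT (3.35 ± 0.568, adjusted p = 0.00123). It was scarce, with 80, 43, 113 and 26 reads in CAPZ_KO, against 3, 7, 3 and 5 reads in WT, so the size of its change is uncertain.

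**Figure D5:**
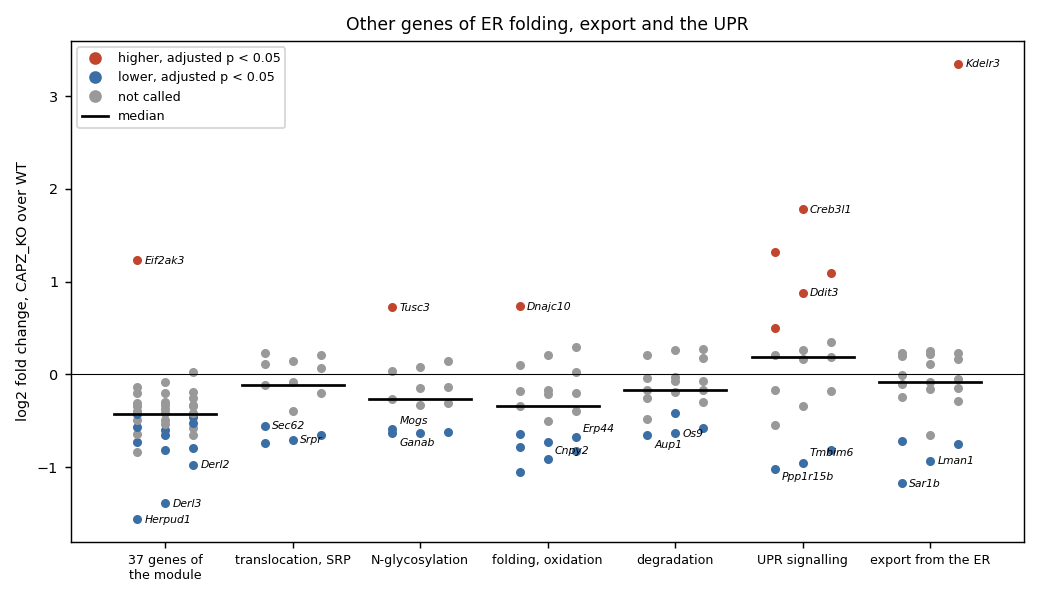
Log2 fold change, CAPZ_KO over WT, of the 37 genes and of 6 lists of other genes of ER entry, folding, degradation, signalling and export, with the median of each list as a bar and the call as colour. The bar of the 37 genes lies lowest at −0.42 and that of UPR signalling is the one above 0, at 0.18.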

How the data were processed

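The authors deposited raw counts of reads for each gene symbol and library, not scaled to library size. The submitters' processing notes name the build mm10 and, in no stated order, edgeR, R 3.3.1, featureCounts, STAR 2.5.3a and bcl2fastq. The sources used here give neither the annotation nor the strand setting. Exons of 13 of the 37 genes overlap a gene on the opposite strand and those of 3 (Hsp90b1, Manf and Pdia4) a gene on the same strand, so that reads there may be divided in unknown ways.

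The function filterByExpr (edgeR 4.0.16) kept 12985 of 24421 symbols, at a minimum count of 10 and a minimum total of 15, and 6905 symbols had no count. The kept genes, scaled by TMM, were compared with the robust quasi-likelihood test of edgeR over 4 CAPZ_KO and 4 WT libraries, with no covariate, Benjamini-Hochberg adjustment over all tested genes and a threshold of 0.05 (R 4.3.3). The common biological coefficient of variation was 24.9%. All adjusted p values come from this test unless DESeq2 1.42.0 or limma 3.58.1 is named. Positions and exon lengths were taken from GENCODE vM21 (GRCm38, the assembly mm10 also names) and promoters from RefSeq. No 2 libraries were duplicates (chi-square per degree of freedom within groups, 25.2 to 144.5).

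The 37 genes, the 105 other pathway genes and the marker lists were chosen with earlier results of these data known. Values for every library are given for called genes of the module with an absolute log2 fold change of at least 0.5, for the 4 sensor genes and for the gene with the highest level per length in each role, with a few more chosen after their values were seen. Of each other list, the 2 genes with the smallest p per direction are named. Leaving out both Xist libraries, or using Xist status as a term, was chosen after seeing the data.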

Additional observations from a re-analysis of the deposited data

Results flagged for a closer look

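Of 110 groups of 4 libraries examined (each named gene in CAPZ_KO and in WT), 1 held a library far from the rest, where chance alone flags about 1 in 20. It was Creb3l1 in CAPZ_KO, where CAPZ_KO 1 held 7.66 CPM against 4.35, 4.38 and 4.66 CPM in the other CAPZ_KO libraries.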

How the results depend on the processing

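With counts scaled to library totals alone, 3 genes of the module were higher and 1 lower, all tested genes gave 7665 higher and 700 lower calls (91.6% higher, against 54.1% under TMM), and Capzb stood at −0.10 (adjusted p = 0.442). The sign turned, relative to TMM, in Ssr3 (0.56), Manf (0.52), Ssr1 (0.45), Hspa5 (0.45), Ssr2 (0.44), Sec61a1 (0.38), Canx (0.34), Pdia3 (0.34), Pdia4 (0.32), Spcs2 (0.31), Xbp1 (0.30), P4hb (0.29), Pdia6 (0.28), Calr (0.23), Uggt1 (0.22), Atf6 (0.22), Derl1 (0.21), Spcs3 (0.18), Hyou1 (0.17), Syvn1 (0.15), Sec61b (0.11), Ssr4 (0.10), Sec63 (0.072), Sec62 (0.071), Dnajb11 (0.068), Mogs (0.044), Edem1 (0.030), Sdf2l1 (0.023), Creld2 (0.011) and Ganab (0.0017). This scaling does not remove the shift of the median of all genes.

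The module had 12 lower genes (32.4%) with DESeq2 size factors, no filter or a filter on CPM of at least 1 in 4 libraries. The count was the same with Xist status as a term. Of all tested genes, 13.5% to 20% were lower in these settings. The module had 8 lower genes with upper-quartile scaling (21.6%, against 15.7% of all genes), 14 by DESeq2 (37.8%, against 21.9%) and 11 by limma-voom (29.7%, against 18.8%). The count of higher genes stayed at 1. Leaving out each library gave 8 to 22 lower and 1 higher genes in the module, 2371 to 2964 higher and 2100 to 2658 lower of all genes, and −0.82 to −0.66 for Capzb. The 22 came without WT 4. The 8 (21.6%) came without CAPZ_KO 4 or without WT 3, against 17% and 15.9% of all genes lower. Signs turned in genes not called: Manf by limma-voom (0.057), with the replicate block (0.059) and with Xist status as a term (0.00905), and, when 1 library was left out, Manf (−0.43 to 0.30), Pdia4 (−0.56 to 0.015) and Ssr3 (−0.20 to 0.018), all above 0 without WT 1, and Spcs1 (−0.078 to 0.070), below 0 without CAPZ_KO 2 or CAPZ_KO 3. The cause was not tested. No label says that same-numbered libraries are paired, although CAPZ_KO 4 and WT 4 both hold Xist, and their deviations correlated by 0.24, 0.009, 0.066 and 0.30 for replicates 1 to 4, not above 0.1 in every pair. With the replicate block 12 genes of the module were lower and 1 higher, and of all genes 2974 were higher and 2411 lower. Within the module depth limits Derl3 most, with 9 to 52 reads per library. Of the other pathway genes named, Kdelr3 had fewer reads than that in WT, at 3 to 7 per library.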
